A study of Mus musculus and Sus scrofa with 18 samples.

Results

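Calcium enters the cytosol of neurons from the endoplasmic reticulum through ryanodine receptors, which open on a rise in cytosolic calcium, and through inositol trisphosphate (IP3) receptors, which open on the messenger made by phospholipase C. SERCA pumps (the Atp2a genes) return calcium to the endoplasmic reticulum, and plasma membrane calcium pumps (the Atp2b genes) expel it from the cell. The data below describe 10 of these genes in mouse striatum: the ryanodine receptors Ryr1, Ryr2 and Ryr3, the IP3 receptors Itpr1, Itpr2 and Itpr3, the SERCA pumps Atp2a2 and Atp2a3, and the plasma membrane pumps Atp2b1 and Atp2b2. They are 10 of the 55357 genes in the mouse count table, and all 10 were among the 19463 genes that passed the filter on low counts. The genes were listed by family with earlier results of these libraries known, and Ryr1 was chosen by its measured fall in Huntington's disease (HD) mice against wild-type (WT) mice, so Ryr1 is described without a test. The other 9 genes were tested, with p-values adjusted over all 19463 genes.

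RNA came from the striatum of 9 mice, 3 in each of 3 groups, with 1 library per mouse. WT mice received AAV9 carrying a control guide RNA (Ctrl gRNA) and no CasRx. HD untreated mice were heterozygous 140Q knock-ins, in which a human HTT exon 1 with a long CAG repeat stands in place of the mouse exon, and they received AAV-CasRx with the Ctrl gRNA. HD treated mice were the same knock-ins given AAV-CasRx with HTT gRNAs against human HTT exon 1. CasRx, an RNA-cutting nuclease, was driven by the CAG promoter and the guides by U6, the vectors were injected into the striatum at 6 months of age, and tissue was taken 1.5 months later. HD and WT mice therefore differed in the allele and in CasRx together, and these cannot be told apart. Nothing in the labels ties a library to a litter or day, and the p-values measure the spread between the 3 libraries of a group.

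The libraries held 27184356 to 32102121 counts. Htt, tagged here near the 3′ end of both alleles and not at the guides' target in exon 1, lay at 181.5 to 190.7 CPM, counts scaled to the same library total, in WT, 140.4 to 149.6 in HD untreated and 130.5 to 139.7 in HD treated mice. Treated and untreated mice differed by −0.10 (standard error, SE, 0.06) on the log2 scale for Htt, with a Benjamini-Hochberg adjusted p of 0.942 from the quasi-likelihood test of edgeR. Y-linked genes held 3435 to 5005 counts in 4 mice, which are the 3 WT mice and HD untreated replicate 1, and 0 counts in the other 5, so this difference and the group cannot be told apart in treated against WT mice. All 14 listed markers of striatal projection neurons were detected in every mouse, at a summed level of 8400 to 11040 CPM in WT, 2807 to 3319 in HD untreated and 4275 to 4352 in HD treated mice. In bulk tissue, fewer cells of a type and less RNA per cell cannot be told apart. The 6 markers of cortical excitatory neurons, which should be low in striatum, summed to 895, 379 and 205 CPM in WT replicates 1, 2 and 3, to 1028 to 1222 CPM in HD untreated mice and to 698 to 764 CPM in HD treated mice.

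Against the WT mice, 3 release or extrusion genes other than Ryr1 were called lower in HD untreated mice and 1 pump was called higher. Ryr3, Itpr1 and the plasma membrane pump Atp2b1 passed the test as lower, and the SERCA pump Atp2a3 passed it as higher, so 4 of the 9 tested members were called at an adjusted p under 0.05 beside 10.7% of all tested genes. In HD treated mice against WT, Ryr3, Itpr1 and Atp2b1 were again called lower and no member was called higher, which makes 3 of 9 beside 3.69% of all tested genes. Between HD treated and HD untreated mice 0 of 9 members were called by edgeR, beside 0% of all tested genes. There 1 member, Ryr3, had an unadjusted P under 0.05 from edgeR, beside 5.5% of all tested genes. DESeq2 called Ryr3 alone of the 9, beside 48 of all 19463 tested genes. By the cutoff in the study's figure legends, an unadjusted P under 0.05 with at least a 2-fold change (its methods give a stricter P), 1 of 9 members (Ryr3) passed in untreated mice, 0 in treated mice and 0 between the HD groups, beside 8.16%, 5.22% and 0.771% of all tested genes. The groups did not overlap for 4 of 9 members in untreated and 6 of 9 in treated mice against WT, beside 30.1% and 28.6% of all tested genes, and for 2 of 9 between the HD groups, beside 15.8%. The comparisons of both HD groups use the same 3 WT mice, so their values are given side by side and are not independent of each other. With the cortical marker level as a covariate, an alternative chosen after seeing the data, 0 of 9 members were called in untreated mice (adjusted p of 0.0515 for Ryr3 from edgeR) and 1, Itpr1, in treated mice. The median log2 change of the 9 members was −0.07 in untreated and −0.24 in treated mice against WT, beside 0.02 and 0.0038 over all tested genes.

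**Figure D1:**
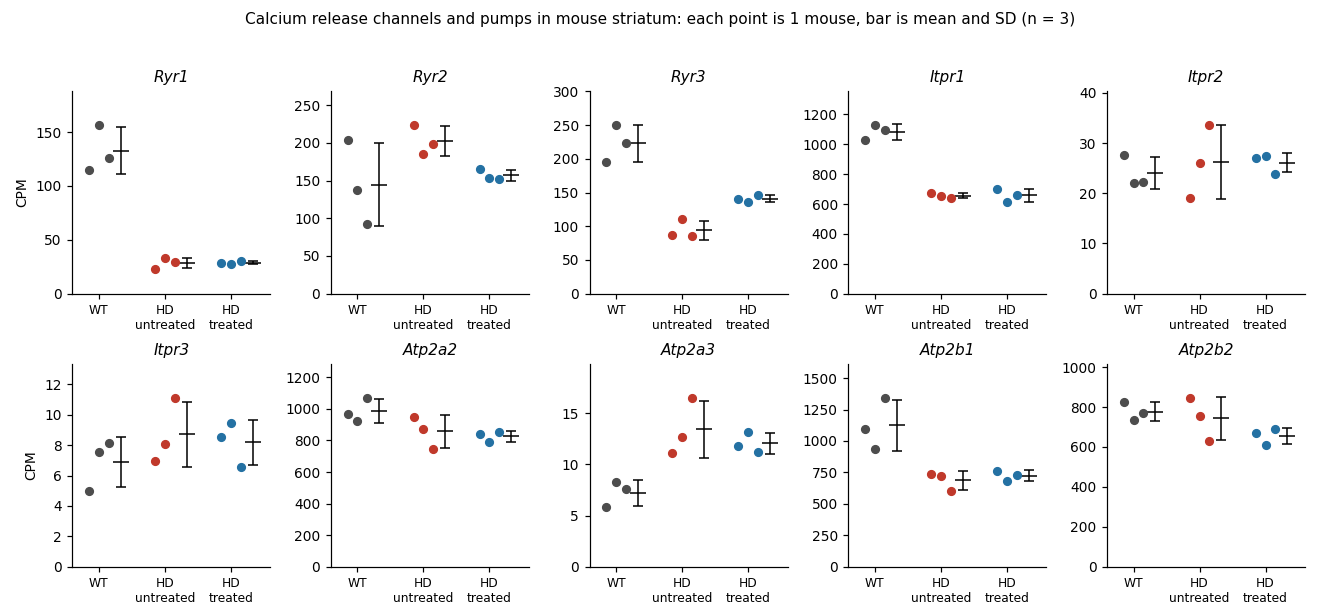
Normalized counts (CPM, vertical axis from 0) of the 10 calcium genes in each mouse of the 3 groups; each point is 1 mouse, and the bar beside it marks the group mean and SD (n = 3). For Ryr1, Ryr3, Itpr1 and Atp2b1 every HD mouse lies below every WT mouse, for Atp2a3 every HD mouse lies above, and for Itpr2 and Itpr3 the groups overlap.

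Ryr1 (ENSMUSG00000030592, chromosome 7), the ryanodine receptor best known from skeletal muscle, was at 115, 157 and 126 CPM in WT replicates 1, 2 and 3. It was at 23.2, 32.7 and 29.3 CPM in the HD untreated mice and at 28.1, 27.6 and 30.0 CPM in the HD treated mice. All 6 HD mice lay below all 3 WT mice, and the 2 HD groups overlapped. The fitted log2 difference was −2.22 (SE 0.15) for untreated against WT, a level 4.66-fold lower, and −2.21 (SE 0.15) for treated against WT. Treated and untreated mice differed by 0.01 (95% interval −0.31 to 0.33). These values chose the gene and are given as a description.

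The markers of skeletal and cardiac muscle were near 0 in all groups, at a sum of 10.5 to 14.6 CPM over 10 genes, and Ckm, the muscle creatine kinase, had 0 to 6 counts in every library. The ranges of the 3 groups overlapped for the muscle sum. Of the 7 muscle markers tested, 5 were higher and 2 lower in untreated mice than in WT. The 1 called was Myh6, lower by 0.78 on the log2 scale (adjusted p = 0.0274 from edgeR), and 0 were called in treated mice. Of all tested genes, 10.7% were called in untreated and 3.69% in treated mice. Of the 7 cerebellar markers, Gabra6, a GABA receptor subunit of granule cells, had 0 to 14 counts and Pcp2, a Purkinje cell gene, 4 to 35. The sum over the 7 was not near 0, at 207 to 379 CPM in WT, 185 to 238 in untreated and 198 to 239 in treated mice. Against WT, 3 of the 6 tested had positive and 3 negative log2 differences in untreated mice, with 0 called beside 10.7% of all tested genes. The largest fall was that of Pcp2 (−1.71, adjusted p = 0.0607 from edgeR), with every untreated mouse below every WT mouse. Its part in the fall of Ryr1 was not tested. The HD untreated mouse with Y-linked counts, replicate 1, had 23.2 CPM of Ryr1, and the WT mice, which also carried them, had 115 to 157 CPM. The part of the Y-linked difference in the fall of Ryr1 was not tested.

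Ryr3 (ENSMUSG00000057378, chromosome 2), the third ryanodine receptor, which is found in brain at sites that include striatum and hippocampus, was the only other member down by over 2-fold. Its level was 195, 251 and 223 CPM in the WT mice. In the HD untreated mice it was 87.2, 110.3 and 85.0 CPM, and in the HD treated mice 140.2, 136 and 147 CPM. The 3 groups did not overlap, with WT highest, HD treated in the middle and HD untreated lowest. The log2 difference of untreated against WT was −1.24 (SE 0.12), with an adjusted p of 0.000599 from the edgeR test. For treated against WT it was −0.66 (SE 0.12), with an adjusted p of 0.0181 from the same edgeR test.

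Treated mice held 49.7% more Ryr3 than untreated mice, a log2 difference of 0.58 (95% interval 0.32 to 0.85) with all 3 treated mice above all 3 untreated mice. This difference had an unadjusted P of 0.000681 and an adjusted p of 0.736 from edgeR, which called 0 genes in that comparison. The adjusted p was 0.00574 from DESeq2, which called 48 genes there. The summed projection neuron markers stand in the same order of groups as Ryr3, and the part of one in the other was not tested. Without any 1 of the 3 treated mice, or without WT replicate 2, the treated against WT call was lost, with adjusted p of 0.0663 to 0.109 from edgeR and log2 differences of −0.56 to −0.69. The Y-linked share as a covariate also ended it (−0.83, adjusted p = 0.202 from edgeR), but that share and the group cannot be told apart in treated against WT mice.

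Ryr2 (ENSMUSG00000021313, chromosome 13), the cardiac receptor and the most widespread one in brain, was not called in any comparison. Its level was 203, 138 and 92.9 CPM in WT replicates 1, 2 and 3, a wide spread. In the HD untreated mice it was 224, 185 and 199 CPM, and in the HD treated mice 165, 153 and 153 CPM. WT replicate 1 reached into the range of the untreated mice, so the groups overlapped, whereas every treated mouse lay below every untreated mouse. The log2 differences were 0.49 (SE 0.22) for untreated against WT and 0.12 (SE 0.22) for treated against WT, with adjusted p of 0.187 and 0.800 from edgeR. Treated against untreated mice gave −0.37 (95% interval −0.87 to 0.13), with an adjusted p of 0.943 from edgeR.

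Within the WT group Ryr2 went with the cortical markers, whose sums of 895, 379 and 205 CPM have the order of its 203, 138 and 92.9 CPM. The HD untreated mice, with the highest mean Ryr2, also had the highest cortical sums, and the part of one in the other was not tested. Without WT replicate 1, Ryr2 was 0.80 higher in untreated mice on the log2 scale, with an adjusted p of 0.014 from edgeR. With the cortical marker level as a covariate, the same difference was −0.23, with an adjusted p of 0.456 from edgeR.

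**Figure D2:**
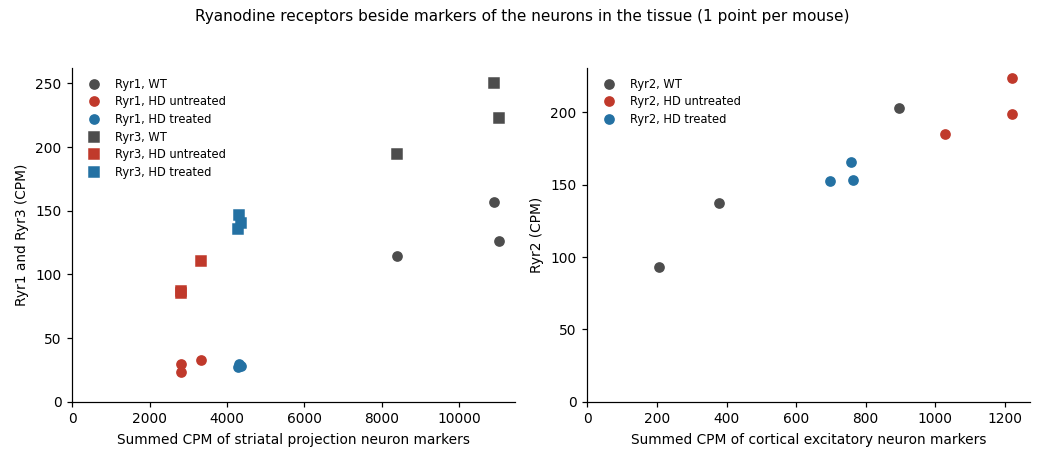
Left, CPM of Ryr1 (circles) and Ryr3 (squares) against the summed CPM of striatal projection neuron markers. Right, CPM of Ryr2 against the summed CPM of cortical excitatory neuron markers. Each point is 1 mouse, coloured by group, and all axes start at 0. WT mice lie at 8400 to 11040 CPM of projection neuron markers and HD mice at 2807 to 4352, and in the right panel WT mice spread from 205 to 895 CPM of cortical markers.

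As a family, the ryanodine receptors held less of the total and shifted in make-up. Their summed level was 500 ± 52.7 CPM in WT, 325 ± 10.8 in HD untreated and 327 ± 8.73 in HD treated mice (SD, n = 3). Ryr1 made up 26.5% of the family's counts in WT and 8.76% and 8.74% in untreated and treated mice. Ryr2 made up 28.6% in WT, 62.3% in the untreated and 48.1% in the treated mice, and its share in WT ranged from 21.0% to 39.6%. Ryr3 made up 44.8% in WT, 29.0% in the untreated and 43.2% in the treated mice. The share of Ryr3 in treated mice, 42.0% to 44.6%, lay inside its WT range of 38.0% to 50.5%, while the family sum of every treated mouse stayed below that of every WT mouse. The libraries tag the 3′ ends, so these are shares of counts and not of transcript lengths covered, and a level of 1 receptor was not compared with that of another. The family sum, which is the denominator of every share, contains Ryr1, a gene chosen by its fall, so no test was made. A fall of Ryr1 alone raises the shares of Ryr2 and Ryr3. The level of Ryr3 itself was 36.7% lower in treated than in WT mice.

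**Figure D3:**
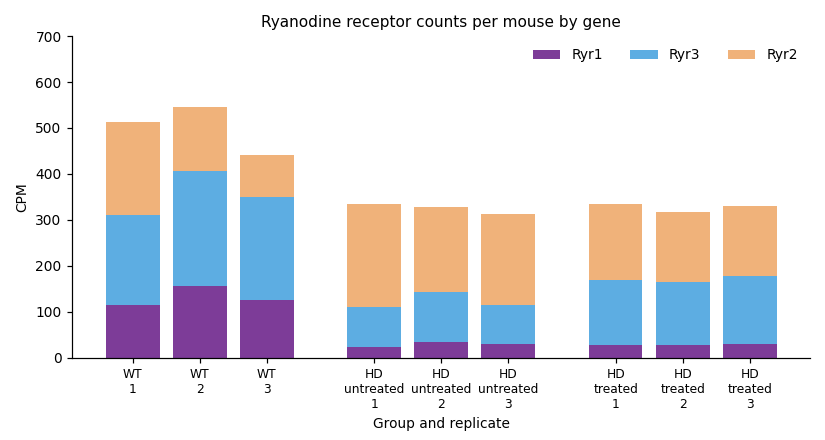
Stacked bars of the CPM of Ryr1 (purple), Ryr3 (blue) and Ryr2 (orange) in each of the 9 mice, labelled by group and replicate; the vertical axis starts at 0. The total is 442 to 545 CPM in WT mice and 313 to 335 CPM in HD mice, and the Ryr1 segment is 115 to 157 CPM in WT mice and 23.2 to 32.7 CPM in HD mice.

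Itpr1 (ENSMUSG00000030102, chromosome 6), the main IP3 receptor of neurons, was lower in both HD groups by nearly the same amount. The WT mice had 1027, 1131 and 1096 CPM. The HD untreated mice had 673, 655 and 642 CPM, and the HD treated mice had 700.2, 614 and 658 CPM. Every HD mouse lay below every WT mouse, and the HD groups overlapped. The log2 difference was −0.72 (SE 0.08) for untreated against WT, 1.65-fold lower, with an adjusted p of 0.00103 from the edgeR test. It was also −0.72 (SE 0.08) for treated against WT, with an adjusted p of 0.00324 from edgeR. Treated against untreated mice gave 0.00 (95% interval −0.17 to 0.18) with an adjusted p of 1 from edgeR. The treated against WT call was lost with the Y-linked share as a covariate (adjusted p = 0.134 from edgeR), and the untreated call with the cortical marker level as one (adjusted p = 0.0664 from edgeR), while the differences stayed at −0.69 and −0.65. In treated against WT mice the Y-linked share and the group cannot be told apart.

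Itpr2 (ENSMUSG00000030287, chromosome 6), the isoform that predominates in astrocytes, ranged from 22.1 to 27.6 CPM in WT, from 19.0 to 33.6 in untreated and from 23.8 to 27.5 in treated mice. Itpr3 (ENSMUSG00000042644, chromosome 17), an isoform of epithelial and secretory cells, was low, at 4.99 to 8.11 CPM in WT, 6.98 to 11.11 in the untreated and 6.56 to 9.46 in the treated mice. The groups overlapped for both genes in every comparison. Their log2 differences from WT lay between 0.12 and 0.34, with adjusted p of 0.39 to 0.755 from edgeR, and the widest 95% interval among them ran from −0.20 to 0.88 for Itpr3 in untreated mice. With the Y-linked share as a covariate the Itpr2 differences turned to −0.24 and −0.42 in untreated and treated mice and that of Itpr3 in treated mice to −0.14, with adjusted p of 0.514, 0.6 and 0.925 from edgeR. Itpr1 held 96.9% to 97.4% of the family's counts in WT, 93.5% to 96.3% in the untreated and 94.3% to 95.6% in the treated mice, and the family's sum was 1116 ± 51.3, 692 ± 6.28 and 692 ± 42.2 CPM (SD, n = 3).

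Of the SERCA pumps, Atp2a2 (ENSMUSG00000029467, chromosome 5), the housekeeping pump of most cells, did not pass the test in any comparison. Its level was 971, 921 and 1070 CPM in WT, 951, 872 and 748 CPM in untreated and 838, 788 and 855 CPM in treated mice. Untreated mice overlapped WT, and the 3 treated mice lay below the 3 WT mice. The log2 difference was −0.20 (SE 0.10) for untreated and −0.25 (SE 0.10) for treated mice against WT, with adjusted p of 0.223 and 0.191 from edgeR.

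Atp2a3 (ENSMUSG00000020788, chromosome 11), the SERCA pump of platelets, endothelium, lymphoid and some epithelial cells, was low. It was the single member called higher, in untreated mice against WT. Its level was 5.82, 8.26 and 7.58 CPM in WT, 11.12, 12.7 and 16.5 CPM in untreated and 11.8, 13.2 and 11.2 CPM in treated mice. All 6 HD mice lay above all 3 WT mice. Untreated against WT gave 0.90 (SE 0.18) on the log2 scale, 1.86-fold higher, with an adjusted p of 0.0178 from the edgeR test. Treated against WT gave 0.74 (95% interval 0.33 to 1.15), with an adjusted p of 0.0563 from edgeR, just outside the threshold. Treated and untreated mice differed by −0.15 (SE 0.18), with an adjusted p of 0.995 from edgeR.

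Markers of the other cells that use Atp2a3 are given beside it, and their part in its rise was not tested. Endothelial markers summed to 144 to 174 CPM in WT, 187 to 230 in the untreated and 203 to 221 in the treated mice over 7 genes, with Cldn5, a tight junction protein of vessels, at 19.2 ± 2.85, 33.2 ± 3.50 and 36.9 ± 3.05 CPM (SD, n = 3). Microglial markers summed to 233 to 258 CPM in WT, 280 to 739 in the untreated and 355 to 477 in the treated mice. Platelet markers summed to 3.25 to 4.96 CPM over all mice, with Pf4, platelet factor 4, at 0 to 10 counts. Lymphocyte markers summed to 66.3 to 83.5 CPM in WT, 26.8 to 107 CPM in the untreated and 47.3 to 60.4 CPM in the treated mice, but the sum is mostly Cd4, which averaged 72.0, 18.1 and 31.9 CPM in the 3 groups. Of the 8 lymphocyte markers tested, 4 were called higher and 1, Cd4, lower in untreated mice, and 1 higher and 1, again Cd4, lower in treated mice by edgeR. Over all tested genes, 4.58% were called higher and 6.1% lower in untreated mice, and 0.904% and 2.78% in treated mice. Cd3e, a subunit of the T cell receptor complex, had 0 to 2 counts in WT, 10 to 265 in the untreated and 19 to 83 in the treated mice. HD untreated replicate 1, which shares the Y-linked counts of the WT mice, had 11.12 CPM of Atp2a3, above every WT mouse. The part of the Y-linked difference in the rise of Atp2a3 was not tested. The untreated call was lost with the Y-linked share as a covariate (0.66, adjusted p = 0.138 from edgeR) and in a fit of the 2 groups alone (0.90, adjusted p = 0.0586 from edgeR), and the treated call was made without HD untreated replicate 3 (0.74, adjusted p = 0.0266 from edgeR).

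Atp2b1 (ENSMUSG00000019943, chromosome 10), the widely used plasma membrane pump, was lower in both HD groups. Its level was 1091, 939 and 1343 CPM in WT, 737, 721 and 599.8 CPM in untreated and 765, 679.9 and 731 CPM in treated mice. No HD mouse reached the lowest WT mouse, and the HD groups overlapped. The log2 difference from WT was −0.71 (SE 0.14) for untreated mice, with an adjusted p of 0.014 from the edgeR test. It was −0.63 (SE 0.14) for treated mice, with an adjusted p of 0.0374 from edgeR. WT replicate 3 was the highest of all, and without it the treated difference was −0.48, with an adjusted p of 0.0616 from edgeR. The treated call was also lost without any 1 treated mouse or without HD untreated replicate 2, with adjusted p of 0.0672 to 0.159 from edgeR. The untreated call was lost with the Y-linked share as a covariate (−0.58, adjusted p = 0.129 from edgeR) and in a fit of the 2 groups alone (−0.71, adjusted p = 0.0507 from edgeR). HD untreated replicate 1, with Y-linked counts, had 737 CPM, below all WT mice. The part of the Y-linked difference in the fall of Atp2b1 was not tested.

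Atp2b2 (ENSMUSG00000030302, chromosome 6), a fast plasma membrane pump of neurons and hair cells, was at 826, 734 and 772 CPM in WT, 846, 754 and 628 CPM in untreated and 671, 612 and 689 CPM in treated mice. Untreated mice spanned the WT range and beyond, whereas the 3 treated mice lay below the 3 WT mice. Against WT the log2 difference was −0.07 (95% interval −0.32 to 0.18) for untreated and −0.24 (95% interval −0.49 to 0.01) for treated mice, with adjusted p of 0.743 and 0.249 from edgeR. With the Y-linked share as a covariate they were 0.09 and 0.02. The 2 plasma membrane pumps thus gave different calls in untreated mice, but the difference between them was not tested.

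**Figure D4:**
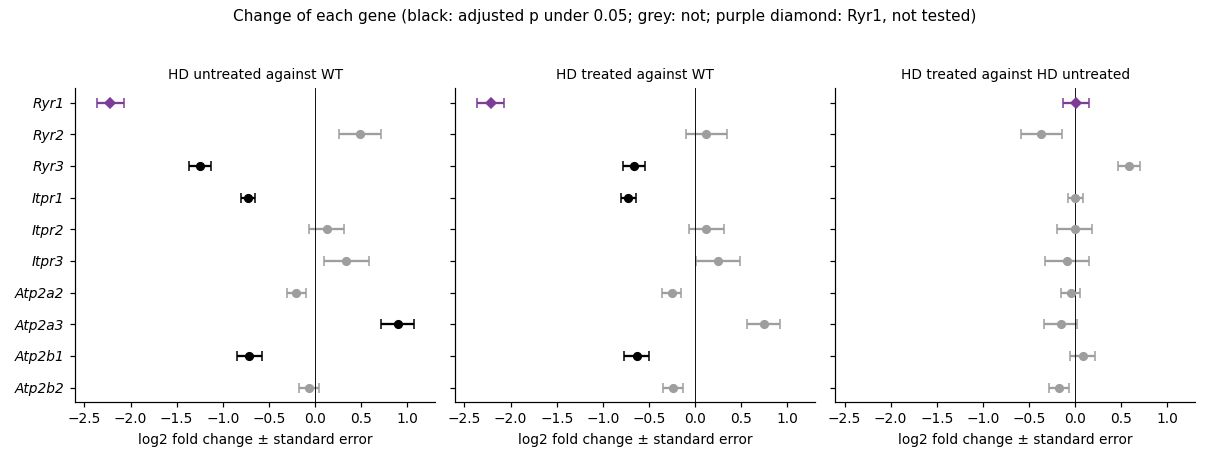
Log2 fold change (horizontal axis) with its standard error for each of the 10 genes in the 3 comparisons. Black points passed an adjusted p under 0.05, grey points did not, and the purple diamond is Ryr1, shown without a test. Between HD treated and HD untreated mice Ryr3 lies at 0.58 and Ryr2 at −0.37, and the other 8 genes lie within −0.18 to 0.08.

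Windows of 250 bases before to 50 after an annotated start were read from RefSeq (build GRCm38.p6), 5′ to 3′ on the strand of the gene. Printed below are windows of Ryr1, of the called members Atp2a3 and Atp2b1, and of Ryr2, which was not called. A window was held for 7 of the 10 members, with none for Ryr3, Itpr1 and Atp2a2, and 10 windows in all since Atp2b1 and Atp2b2 have several. Capitals mark the GC box (GGGCGG, or CCGCCC on the other strand) and the CRE half-site (TGACG or CGTCA), and the TATA box letters (TATAAA or TTTATA) were searched as well. Matches of the GC box to each other may overlap.
Ryr1, chr7:29125102-29125401, minus strand: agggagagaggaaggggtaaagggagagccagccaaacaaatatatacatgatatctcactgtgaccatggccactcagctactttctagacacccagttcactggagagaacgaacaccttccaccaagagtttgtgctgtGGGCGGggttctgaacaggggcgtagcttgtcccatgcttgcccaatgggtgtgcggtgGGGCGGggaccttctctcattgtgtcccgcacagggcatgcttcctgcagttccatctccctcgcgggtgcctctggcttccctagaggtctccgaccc
Ryr2, chr13:12106896-12107195, minus strand: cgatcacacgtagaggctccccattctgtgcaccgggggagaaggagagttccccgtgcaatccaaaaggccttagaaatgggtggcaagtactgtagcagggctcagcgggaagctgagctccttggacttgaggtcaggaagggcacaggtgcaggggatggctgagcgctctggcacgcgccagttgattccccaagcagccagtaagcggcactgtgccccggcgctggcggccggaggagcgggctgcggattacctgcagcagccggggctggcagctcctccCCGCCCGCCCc
Atp2a3, chr11:72960919-72961218, plus strand: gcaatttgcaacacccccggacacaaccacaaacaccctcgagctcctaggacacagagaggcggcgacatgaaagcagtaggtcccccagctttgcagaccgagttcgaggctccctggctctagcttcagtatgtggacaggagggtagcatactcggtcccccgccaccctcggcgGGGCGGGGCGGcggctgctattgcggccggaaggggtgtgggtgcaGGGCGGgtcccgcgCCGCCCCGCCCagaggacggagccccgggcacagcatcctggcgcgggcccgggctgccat
Atp2b1, chr10:98914392-98914691, plus strand: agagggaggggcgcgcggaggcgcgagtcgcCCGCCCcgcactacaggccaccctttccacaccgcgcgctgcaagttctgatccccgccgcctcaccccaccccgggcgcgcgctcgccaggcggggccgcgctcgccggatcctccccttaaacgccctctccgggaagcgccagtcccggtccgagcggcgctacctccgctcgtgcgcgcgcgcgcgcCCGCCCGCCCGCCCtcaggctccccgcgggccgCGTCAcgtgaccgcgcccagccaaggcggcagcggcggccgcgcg

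Ryr1 and Ryr2 each held 2 GC boxes, Atp2a3 held 5, and this Atp2b1 window held 4 with 1 CRE half-site. Among 32851 promoter windows of the same length, 35.7% held a GC box, 20.8% a CRE half-site and 13.6% a TATA box. None of the 10 member windows held the TATA box letters, and the CRE half-site was in the printed Atp2b1 window alone. The GC content was 56.7% for Ryr1, which fell most, 65.3% for Ryr2, 68.3% for Atp2a3 and 79.3% for Atp2b1, beside a median of 52.7% over all windows. The Ryr1 window had 9 CG dinucleotides and the Atp2b1 window 54, beside a median of 7. These counts describe the letters in the windows.

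The pattern of each gene over the 9 mice was set beside that of the 10571 genes with a mean of at least 10 CPM, by Pearson's r of log2 CPM, as a description. All 9 libraries share the group differences, which enter each r. Most like Ryr1 were Rgs14, Arel1 and Tef (each r = 0.99), then Dlgap2 and Camk2b (each r = 0.98). Rgs14, a regulator of G protein signalling, averaged 79.8 CPM in WT, 30.1 in the untreated and 30.7 in the treated mice, the same flat step between the HD groups as Ryr1. Most like Ryr3 were Ankrd63 (r = 1.00), Cd4, Actn2, Gng7 and Dlx6 (r = 0.99). Gng7, a G protein subunit of striatal neurons, averaged 999 CPM in WT, 394 in the untreated and 604.5 in the treated mice, with the treated mice in the middle as for Ryr3.

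Itpr1 was most like Tef, Myt1l, Ppp1r16b and Ptk2b (each r = 0.99), then Shank3 (r = 0.98). Tef, a transcription factor of the PAR bZIP family, was thus among the 5 genes nearest to Ryr1 and to Itpr1. The r of Ryr1 with Itpr1 was 0.98, with Ryr3 0.88 and with Ryr2 −0.53. Atp2b1 was most like Ppp3ca (r = 0.99), a catalytic subunit of calcineurin, with Ano3, Dlg2, Rps6ka5 and Dnajb4 next. Atp2a3 was most like Pecam1 (r = 0.97), an endothelial and platelet adhesion protein at 17.5 CPM in WT and 22.8 CPM in both HD groups. Next were Stom, Abcb10 and Tmem19 (each r = 0.96) and Trim26 (r = 0.95).

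The other genes of calcium handling were taken as 12 lists of 171 genes, 164 of them tested. In HD untreated mice against WT, 8 were higher and 26 lower by edgeR's adjusted p, beside 4.58% and 6.1% of all tested genes called higher and lower. In HD treated mice, 0 were higher and 13 lower, beside 0.904% and 2.78%. Between the HD groups 0 were called by edgeR and 1 by DESeq2, beside 0 and 48 of all 19463 tested genes. The median log2 change over the 164 genes was −0.03 in untreated and −0.06 in treated mice, beside 0.02 and 0.0038 over all tested genes. These counts moved with single mice, from 18 without HD untreated replicate 3 to 45 without WT replicate 1 in untreated mice, and from 1 without HD treated replicate 2 to 23 without WT replicate 1 in treated mice. With the Y-linked share as a covariate, 10 of the 34 calls in untreated mice held, which are Cacnb2, Cacna1c, Cacna2d3, Cacna1h, Cacnb1, Pcp4, Camk2b, Erlin1, Rcn1 and Slc24a4, all lower, and 0 of the 13 in treated mice. With the cortical marker level as a covariate, 1 of the 34 held, Cacnb2, and 7 of the 13, which are Cacnb2, Cacna1c, Cacna2d3, Cacnb1, Camk4, Camkk1 and Chrm1. The called genes kept their direction under both, 34 of 34 and 13 of 13. They were picked by their calls in these same mice, so the kept direction is a description and no support for the calls. The calls described below are those of the fit without a covariate.

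**Figure D5:**
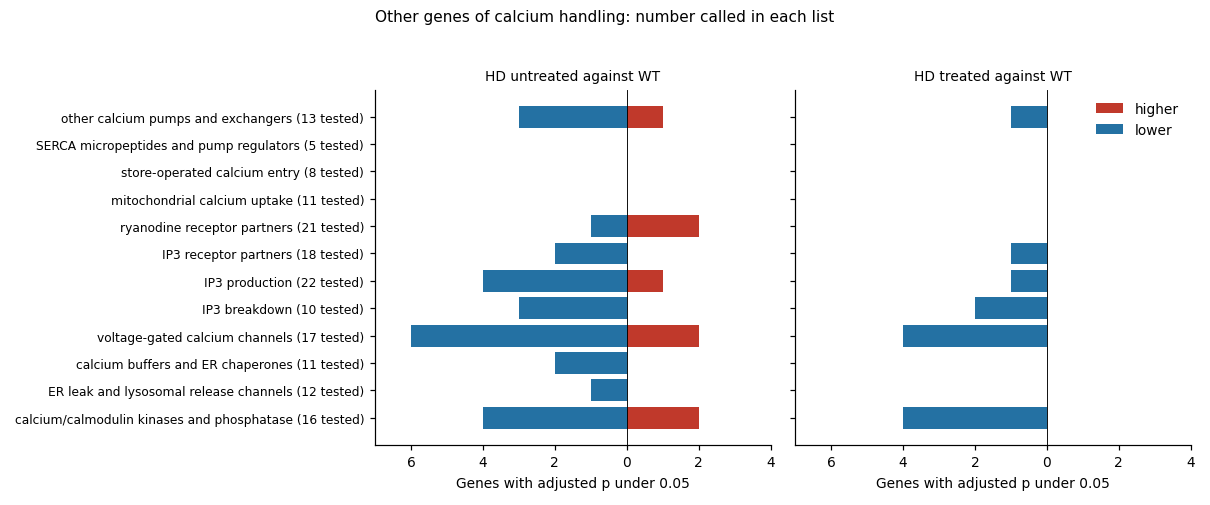
Number of genes with an adjusted p under 0.05 in each of the 12 calcium lists, higher to the right (red) and lower to the left (blue) of 0, for HD untreated (left panel) and HD treated mice (right panel) against WT; the number tested stands beside each list. Voltage-gated channels have the most calls in untreated mice, 6 lower and 2 higher, and no list has a higher call in treated mice.

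Voltage-gated calcium channels, which bring calcium in on depolarization and couple to ryanodine receptors, had 6 of 17 tested genes lower and 2 higher in untreated mice, and 4 lower in treated mice. Over all tested genes, 6.1% were called lower and 4.58% higher in untreated mice, and 2.78% lower in treated mice. The beta subunit Cacnb2 was at 98.3 ± 7.63 CPM in WT, 44.8 ± 5.04 in the untreated and 51.1 ± 3.34 in the treated mice (SD, n = 3). Its log2 difference was −1.13 (SE 0.10) in untreated and −0.94 (SE 0.10) in treated mice, with adjusted p of 0.000371 and 0.00281 from edgeR. The L-type pore subunit Cacna1c fell by 0.62 and by 0.51 on the log2 scale, with adjusted p of 0.00112 and 0.00557 from edgeR. Cacna2d3, an auxiliary alpha-2-delta subunit, fell by 0.97 and 0.79, with adjusted p of 0.00123 and 0.00613 from edgeR. In treated mice Cacnb1, the beta subunit of the skeletal muscle channel that is also made in brain, fell by 0.53, with an adjusted p of 0.00931 from edgeR. Beyond the 3 genes set per list, Cacnb1, Cacna1h and Cacna1e were lower and Cacna2d1 and Cacna1g higher in untreated mice, and these were named after their values were seen.

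The 21 tested partners of ryanodine receptors gave 2 higher and 1 lower call in untreated mice and 0 calls in treated mice. Beside these and the kinase counts below, 10.7% of all tested genes were called in untreated and 3.69% in treated mice. Jph4, a junctophilin that holds the endoplasmic reticulum near the plasma membrane, fell by 0.43 on the log2 scale, with an adjusted p of 0.00917 from edgeR. Fkbp1b, which binds and steadies the receptor, was at 6.93 ± 3.07 CPM in WT and 13.8 ± 1.98 in untreated mice, a log2 difference of 1.00 with an adjusted p of 0.0414 from edgeR. Stac2, an adaptor of L-type channels rather than of the receptor itself, went from 55.2 ± 28.0 to 119 ± 20.1 CPM, a log2 difference of 1.11 with an adjusted p of 0.0486 from edgeR. With the cortical marker level as a covariate these 2 differences were 0.31 for Fkbp1b and 0.14 for Stac2. The calmodulin kinases, phosphatase and binding proteins had 4 of 16 lower and 2 higher in untreated mice and 4 lower in treated mice. Pcp4, a small calmodulin-binding protein rather than a kinase, was at 556 ± 43.4 CPM in WT, 239 ± 45.8 in the untreated and 306 ± 9.79 in the treated mice. Its log2 differences were −1.22 and −0.86, with adjusted p of 0.00104 and 0.00948 from edgeR. Camk2b fell by 0.64 and 0.54 and Camk4 by 0.78 and 0.82 in untreated and treated mice, with adjusted p of 0.00249 to 0.0097 from edgeR. Camkk1, a kinase that activates other calmodulin kinases, fell by 0.71 in treated mice, with an adjusted p of 0.0316 from edgeR. The other calls of this list in untreated mice were Ppp3ca, lower, and Camk2d and Camk1, higher, named after their values were seen.

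The lists around IP3 were lower in untreated mice in 9 genes and higher in 1. Beside these, 6.1% of all tested genes were called lower and 4.58% higher. Of 22 genes for IP3 production, 4 were lower and 1 higher. Plcl2, a phospholipase C relative without catalytic activity, fell by 0.48 on the log2 scale and the muscarinic receptor Chrm1 by 0.47, with adjusted p of 0.015 and 0.0245 from edgeR. Plce1, lower, and Plch2, higher, were also called, and were named after their values were seen. Of 10 genes for IP3 breakdown, 3 were lower, and these were the IP3 3-kinase Itpka (−0.56), the IP3 5-phosphatase Inpp5a (−0.43) and Ippk (−0.86), a kinase of a later inositol phosphate, with adjusted p of 0.0119, 0.0271 and 0.00462 from edgeR. Of 18 partners of IP3 receptors, Erlin1, which serves the removal of activated receptors, fell by 0.67 and Bcl2, an apoptosis inhibitor that binds the receptor, by 0.68, with adjusted p of 0.00186 and 0.0251 from edgeR. In treated mice Chrm1 (−0.56), Itpka (−0.60), Ippk (−0.73) and Erlin1 (−0.50) were lower, with adjusted p of 0.0129 to 0.0225 from edgeR.

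Of 13 other pumps and exchangers, 3 were lower and 1 higher in untreated mice, beside 6.1% and 4.58% of all tested genes. The potassium-dependent sodium-calcium exchanger Slc24a4 went from 60.5 ± 9.72 to 33.1 ± 5.00 CPM, and was 35.6 ± 1.69 CPM in treated mice. Its log2 differences were −0.87 and −0.76, with adjusted p of 0.00611 and 0.0182 from edgeR. The sodium-calcium exchangers moved in both directions in untreated mice, with Slc8a3 down by 0.43 and Slc8a1 up by 0.91, at adjusted p of 0.0209 and 0.0387 from edgeR, and Slc8a2, named after its values were seen, lower. Of 11 calcium buffers and chaperones of the endoplasmic reticulum, Rcn1, a calcium-binding protein, fell by 0.82 and the chaperone Hspa5 by 0.92 in untreated mice, with adjusted p of 0.00421 and 0.0305 from edgeR. Among 12 genes listed for leak and lysosomal release, Mctp1, a calcium-binding membrane protein that is not itself a known channel, was lower by −0.79, with an adjusted p of 0.0135 from edgeR. The 8 genes of store-operated entry, the 11 of mitochondrial uptake and the 5 tested of 10 micropeptides and pump regulators had 0 calls in either HD group against WT, with log2 changes from −0.69 to 0.55. Atp2a1, the SERCA pump of fast skeletal muscle, had 2 to 73 counts per library, and phospholamban (Pln), the cardiac inhibitor of Atp2a2, 18 to 92 counts.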

How the data were processed

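The authors prepared 3′ mRNA libraries from mouse striatum with an oligo-dT primer and deposited raw counts per Ensembl gene, whole numbers without normalization. The study's methods name STAR for alignment, whereas the submitters' processing notes list Trimmomatic 0.39, FastQC 0.11.9, HISAT2 2.2.1 and featureCounts 2.0.1 (Subread). The mouse build is not given in the sources used here, so for genes only chromosomes are given. Whether tags were collapsed by molecular identifier is also not given, and counts of PCR products without it are not independent molecules. Reads ending in antisense or overlapping genes cannot be told apart without a stated strand. Pig counts were not used.

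Symbols came from GENCODE M21 and matched 94.1% of gene IDs, which hold 99.8% of counts. Counts of the 9 mice were fitted together in R 4.3.3 with edgeR 4.0.16 (quasi-likelihood, filterByExpr, TMM), with group as the only term; the study names edgeR without its model. Genes with a Benjamini-Hochberg adjusted p under 0.05 over the 19463 tested were called. CPM are per TMM-scaled library, and log2 CPM for correlations used a prior count of 2. Scripts were tested on simulated data. The members and lists were chosen with earlier results of these data known. Named were all members, of each calcium list the up to 3 genes with the smallest P called in untreated mice and up to 2 further ones called in treated mice, defining markers and any marker needed beside a member, and the 5 genes most like Ryr1 and each called member. One gene that the rule names is not reported here. Alternatives were other scalings, DESeq2 1.42.0, other filters, 2-group fits, a replicate block, covariates, each mouse left out, and the cutoff in the study's figure legends (unadjusted P under 0.05 with at least a 2-fold change), for which its methods give a stricter P. Figures were drawn with matplotlib 3.10.9.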

Additional observations from a re-analysis of the deposited data

How the results depend on the processing

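Of 540 values of the 10 genes recomputed under other settings, 506 kept their side of the threshold or, for Ryr1, moved by less than the replicate spread. Of the others, 25 lost a call, 7 gained one and 2, of Ryr1, moved further. Values not called in the reported fit, among them all between the HD groups, had no call to lose. The sign changed in 39, 27 of them between the HD groups and 12 against WT, and 0 of the 39 were called before or after, as for Ryr2 in untreated mice (0.49 against −0.23 with the cortical covariate). Calls among the 9 tested members in untreated mice, 4 as reported, became 2 with the Y-linked share as a covariate, 2 in a fit of the 2 groups alone, 1 by the legends' cutoff and 0 with the cortical marker level as a covariate, an alternative chosen after the data were seen. In treated mice, 3 as reported, they became 0 with the Y-linked covariate, 1 with the cortical covariate and 0 by the legends' cutoff. Leaving out each mouse gave 4 to 5 calls in untreated and 1 to 4 in treated mice, with 1 without each of the treated mice. Calls between the HD groups, 0 as reported, became 1 by DESeq2, which called 48 of all 19463 tested genes there.

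Calls on the calcium lists in untreated mice, 34 as reported, were 57 by DESeq2, 22 with no filter, 10 and 1 with the Y-linked and cortical covariates, 18 in the fit of 2 groups and 6 by the legends' cutoff. Leaving out each mouse gave 18 to 45. In treated mice, 13 as reported, they were 33 by DESeq2, 0 and 7 with the Y-linked and cortical covariates and 2 by the legends' cutoff, and 1 to 23 when each mouse was left out. Between the HD groups DESeq2 called 1 and edgeR 0. Over all genes edgeR called 2080 and 718 genes in untreated and treated mice, 457 and 5 with the Y-linked covariate, and 58 and 166 with the cortical one. DESeq2 called 3473 and 1946 genes in untreated and treated mice against WT, and 48 between the HD groups. The cause of these changes was not tested. Since the Y-linked share and the group cannot be told apart in treated against WT mice, that covariate cannot decide a call there.

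Whether the replicate numbers pair the mice cannot be decided from 3 mice per group. Of 9 pairs with the same number, 2 had a correlation over 0.1. The mean correlation was 0.045 for same-number pairs and −0.0221 for other pairs. For 4 of 9 mice the best match was a mouse of their own number. With the replicate number as a block, 4 members were called in untreated, 3 in treated mice and 0 between the HD groups, and 40, 18 and 0 list genes. In treated mice the block brought Atp2a3 to an adjusted p of 0.0485 and took Atp2b1 to 0.0519 by edgeR. With 3 mice per group, an exact permutation test cannot go below 0.1, and low genes such as Itpr3 and Atp2a3 rest on the fewest counts.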
